A study of Mus musculus with 302 samples.

Results

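The comparison described here set the 75 livers with the highest expression of 3 fasting genes against the 75 with the lowest, among 302 F2 mice. The 3 genes were Pck1, Tat and Igfbp1, and the mice were chosen by their own values of them. Each gene was centred within 4 blocks of mice, divided by its SD and averaged with the others into a score. The remaining 152 mice lay between and were used only where stated. Females and males were bred by intercrossing F1 animals that descended from C57BL/6J and from C3H/HeJ, crossed in both orders. Until 8 weeks of age they ate chow with 4% fat, and then, for 12 weeks, a Western diet with 42% fat and 0.15% cholesterol. Livers were taken at 20 weeks after 12 h without food, so every animal in both ends of the score had fasted. The labels give 1 group, 1 array per mouse and no treatment, genotype, trait or sex of a single mouse.

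In a fasting liver, glucose is made anew from lactate, glycerol and amino acids. Glucagon acts through cAMP and the factor CREB, and glucocorticoids act through their nuclear receptor, to switch on the genes of this pathway, while insulin holds them down by keeping the factor FoxO1 out of the nucleus. Pck1 encodes the cytosolic phosphoenolpyruvate carboxykinase, an early committed enzyme of the pathway. Tat encodes tyrosine aminotransferase, a classical glucocorticoid-induced gene of amino acid breakdown. Igfbp1 encodes a secreted binding protein of insulin-like growth factors, whose gene insulin represses.

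The stretches of DNA in front of the 3 score genes, and of 2 genes outside the score that are described further on, were searched for short motifs of the factors just named. They are shown as the 250 bases before the start of the gene on its own strand, from RefSeq on the assembly GRCm38.p6. Capitals mark matches to ACGTCA, the core of the cAMP response element, or to CAAAACA, a motif of insulin response elements, on either strand. Pck1 lies on the plus strand of chromosome 2, and its window is chr2:173152823-173153072. The window of Igfbp1, also on the plus strand, is chr11:7197537-7197786. That of Tat on the plus strand is chr8:109990186-109990435. Ppargc1a lies on the minus strand, with the window chr5:51567726-51567975. Dusp1 lies on the minus strand as well, with the window chr17:26508473-26508722.
Pck1: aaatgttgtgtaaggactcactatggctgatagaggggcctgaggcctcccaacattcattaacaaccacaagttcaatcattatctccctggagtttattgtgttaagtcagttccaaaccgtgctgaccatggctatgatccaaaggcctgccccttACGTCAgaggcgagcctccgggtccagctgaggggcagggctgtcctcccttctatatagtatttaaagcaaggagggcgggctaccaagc
Igfbp1: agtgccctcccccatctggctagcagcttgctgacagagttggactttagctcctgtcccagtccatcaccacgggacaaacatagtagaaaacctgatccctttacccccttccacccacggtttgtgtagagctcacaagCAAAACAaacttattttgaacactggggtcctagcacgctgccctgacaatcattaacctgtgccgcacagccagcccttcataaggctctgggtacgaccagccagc
Tat: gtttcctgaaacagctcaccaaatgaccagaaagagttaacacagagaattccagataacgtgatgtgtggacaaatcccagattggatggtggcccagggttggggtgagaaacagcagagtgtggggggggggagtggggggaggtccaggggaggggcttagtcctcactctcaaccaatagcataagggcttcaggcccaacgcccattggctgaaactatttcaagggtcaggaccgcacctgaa
Ppargc1a: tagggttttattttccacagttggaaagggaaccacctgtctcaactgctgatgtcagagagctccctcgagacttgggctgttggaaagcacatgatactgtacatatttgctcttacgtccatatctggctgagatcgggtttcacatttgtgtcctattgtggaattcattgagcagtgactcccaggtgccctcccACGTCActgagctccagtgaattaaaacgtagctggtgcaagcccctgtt
Dusp1: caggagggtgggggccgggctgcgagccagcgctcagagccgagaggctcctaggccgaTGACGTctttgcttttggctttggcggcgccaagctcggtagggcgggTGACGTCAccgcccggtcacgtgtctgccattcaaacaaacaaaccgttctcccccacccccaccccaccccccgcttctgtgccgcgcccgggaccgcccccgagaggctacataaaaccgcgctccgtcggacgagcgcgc
In Pck1 the match to ACGTCA ran from base -91 to base -86, counted back from the start of the gene. In Igfbp1 the match to CAAAACA ran from -108 to -102. In Ppargc1a a match to ACGTCA ran from -50 to -45. Dusp1 held 3 matches to ACGTCA, of which 2 overlap on opposite strands between -143 and -136. The Tat window held neither motif, nor GTAAACA, a motif of FoxO factors, nor the glucocorticoid element, searched as GNACA, 3 bases of any kind and TGTNC. Among all 27025 genes with a window, ACGTCA was found in 6.56%, CAAAACA in 5.55%, GTAAACA in 3.09% and the glucocorticoid element in 0.381%. A match is a string of letters and was not tested as a binding site.

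Values below are log10 ratios, with the RNA of 1 liver set against a pool of RNA from every liver. Neither the base nor the direction of the ratio is stated, so every fold below rests on that reading. Ratios to a pool give no absolute level, and the genes of a liver cannot be ranked by abundance from them. The blocks join a low or a high value of the Y-linked gene Eif2s3y with a number in the mouse's title of up to 212 or above it. They held 82, 78, 77 and 65 mice. The 4 blocks gave 18, 20, 20 and 17 mice to the high end of the score and 17, 19, 22 and 17 to the low end. Title numbers ran higher in the score-high mice, with a median of 212 against 174. In the block of Eif2s3y-high mice with numbers up to 212, score-high mice had a median number of 189.5 and score-low mice one of 117. The SD over the genes of an array had a median of 0.104 in score-high and 0.105 in score-low mice, and array medians lay between -0.00971 and 0.0217.

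The score ran from 0.621 to 2.57 in the high mice and from -2.45 to -0.631 in the low mice. The last mouse inside the high end had a score of 0.621 and the first outside it 0.580. At the low end these values were -0.631 and -0.616. Thus the groups are the ends of a continuous distribution and no gap sets them apart.

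Pck1 had a log10 ratio between -0.401 and -0.0248 in the score-low mice, with a median of -0.192. In the score-high mice it ran from -0.0344 to 0.370 with a median of 0.0788. The value of 0.370 came from mouse 170, whose array stood apart in several measures. Its array median (0.0217) was the highest of all mice, and its SD (0.210) the highest among score-high mice. It had 39 values at the limits of -2 and 2, and the lowest Eif2s3y of its block (-0.437). Only the edges of the groups met. Tat ran from -0.458 to -0.0225 in the low group (median -0.224) and from -0.123 to 0.272 in the high group (median 0.0326). Igfbp1 had the widest range, from -1.19 to 0.257 in the low group (median -0.499) and from -0.179 to 0.964 in the high group (median 0.199). All 3 genes lay above their block means in 74 of the 75 score-high mice, and all 3 below them in 62 of the 75 score-low mice. These values chose the mice, so they are a description and carry no test.

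**Figure D1:**
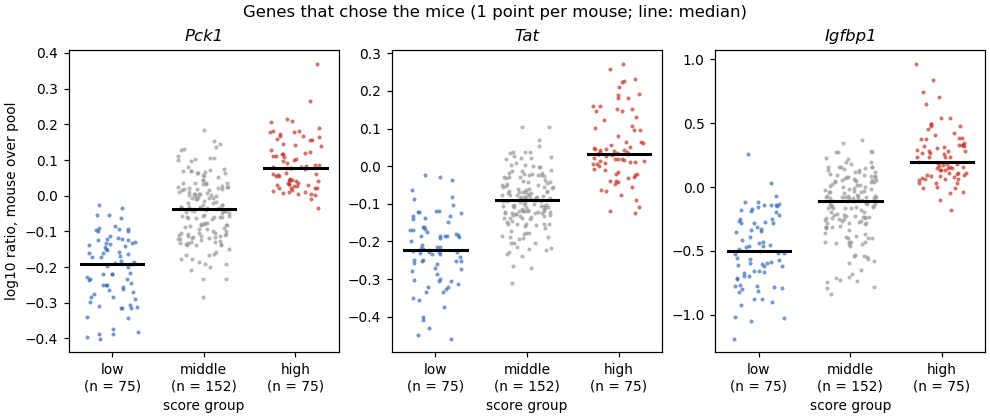
Log10 ratio to the pool (vertical axis) of Pck1, Tat and Igfbp1 in the 75 score-low, 152 middle and 75 score-high mice, 1 point per mouse, with the median as a line. The medians of Pck1 are -0.192, -0.0384 and 0.0788 from low to high.

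Each of the 3 genes was left out of the ranking in turn, to see how it followed the others. The mice and the tests were chosen with earlier results of these data known. The p-values of these 3 differences are thus no independent evidence that the genes go together. With the mice ranked on Tat and Igfbp1 alone, Pck1 ran from -0.397 to 0.0346 in the 75 lowest (median -0.150) and from -0.176 to 0.370 in the 75 highest (median 0.0775). It was 1.74-fold higher in the high mice (95% interval 1.63 to 1.87, adjusted p = 1.00e-30 by limma). In that ranking 15.2% of the tested genes were called higher. Ranked on Pck1 and Igfbp1, Tat was 1.72-fold higher (1.59 to 1.86, adjusted p = 1.27e-25), where 14.8% of the genes were called higher. Ranked on Pck1 and Tat, Igfbp1 was 3.20-fold higher (2.57 to 3.99, adjusted p = 9.75e-17), beside 23.7% of all genes. Igfbp1 still spanned -1.05 to 0.257 in the low group and -0.785 to 0.964 in the high group of that ranking, so its groups overlapped over much of their range. Each of the 3 differences was positive within all 4 blocks.

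Over the 10812 genes tested outside the score, 2128 were higher in score-high livers (19.7%) and 1769 were lower (16.4%) at an adjusted p under 0.05. They were measured on the same arrays as the score genes. With 75 mice a group, small shifts pass this threshold. The median change of a called gene was 1.06-fold among the higher and 1.12-fold among the lower. Only 61 higher and 34 lower genes changed by over 1.5-fold, and 17 higher genes and 1 lower gene by over 2-fold. The sign was the same within all 4 blocks for 1648 of the higher and 1345 of the lower genes. The largest changes were upward, and they are described first.

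Gadd45g, a stress-induced gene of the growth arrest family, changed most. Its log10 ratio lay between -0.943 and 0.198 in the score-low mice (median -0.462) and between -0.488 and 0.740 in the score-high mice (median 0.290). The ranges overlapped, but 42 score-high mice lay above the highest score-low mouse and no score-low mouse reached the score-high median. The fitted change was 4.48-fold (95% interval 3.68 to 5.46, adjusted p = 2.89e-28). Trp53inp1, a p53-induced stress protein with a part in autophagy, followed. It ran from -1.07 to 0.299 in the low group (median -0.454) and from -0.266 to 0.524 in the high group (median 0.279). All 75 score-high mice lay above the score-low median. The change was 4.31-fold (3.65 to 5.09, adjusted p = 1.52e-33). Gadd45b, of the same family as Gadd45g, was 3.41-fold higher (2.79 to 4.18), and 72 of 75 score-high mice lay above the score-low median.

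Lpin1 encodes a phosphatidate phosphatase that also acts with Ppargc1a as a coactivator in the fasting liver. It ran from -0.855 to 0.315 in the score-low mice (median -0.328) and from -0.759 to 0.550 in the score-high mice (median 0.270). In 70 of 75 score-high mice it exceeded the score-low median, and 1 score-low mouse exceeded the score-high median. It was 3.29-fold higher (2.73 to 3.95, adjusted p = 7.54e-23). Rasd1, a small GTPase induced by dexamethasone, was 3.01-fold higher. Noct, a rhythmic NADPH phosphatase, was 2.91-fold higher. The stress kinase gene Plk3 was 2.90-fold higher, with all 75 score-high mice above the score-low median.

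The cell cycle inhibitor Cdkn1a (p21) and the phosphatase Dusp1, which inactivates MAP kinases, were each 2.80-fold higher. Cdkn1a ran from -1.00015 to 0.573 in the score-high mice, and its lowest value lay below that of the score-low mice (-0.871). Dusp1 reached at most 0.179 in the score-low mice, and 36 score-high mice exceeded that value. Inhbb, which encodes an activin subunit, was 2.56-fold higher. Slc38a2, a sodium-coupled carrier of small neutral amino acids, ran from -0.506 to 0.309 in the low group (median -0.192) and from -0.214 to 0.735 in the high group (median 0.264). It was 2.53-fold higher (2.25 to 2.86, adjusted p = 1.97e-28). Slc10a6, a carrier of sulphated steroids, was 2.51-fold higher, and the window in front of its gene held the glucocorticoid element. These 12 are by choice the largest upward changes of 1 sign in all 4 blocks.

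**Figure D2:**
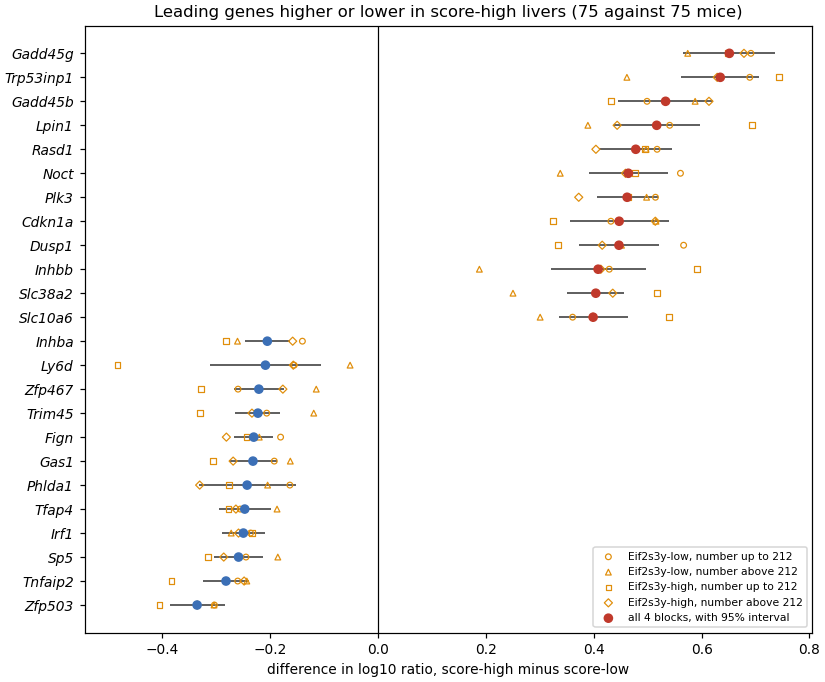
Difference in log10 ratio between score-high and score-low mice (horizontal axis) for the 12 higher and 12 lower genes with the largest changes among those called and of 1 sign in all 4 blocks. Filled points give the fitted difference with its 95% interval, and open symbols the difference within each block. Gadd45g (0.65) and Zfp503 (-0.33) lead the 2 sides.

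The genes that were lower changed less. Zfp503, a zinc finger repressor of transcription, was the 1 gene that fell by over 2-fold. It ran from -0.416 to 0.525 in the score-low mice (median 0.0919) and from -0.555 to 0.206 in the score-high mice (median -0.244). In 73 of 75 score-low mice it lay above the score-high median. It was 2.16-fold higher in score-low than in score-high livers (1.93 to 2.43, adjusted p = 2.14e-23). Tnfaip2, a gene induced by tumour necrosis factor, was 1.91-fold higher in the score-low livers, and Sp5, a target and factor of Wnt signalling, 1.81-fold. Irf1, a transcription factor of the interferon response, ran from -0.253 to 0.282 in the low group (median 0.0632) and from -0.529 to 0.177 in the high group (median -0.183). It was 1.78-fold higher in score-low livers (1.62 to 1.95, adjusted p = 7.27e-22).

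The transcription factor Tfap4 was 1.77-fold higher in score-low livers, the growth arrest gene Gas1 1.71-fold and Fign, a microtubule-severing protein, 1.70-fold. Phlda1 (1.75-fold), Trim45 (1.67-fold), the zinc finger gene Zfp467 (1.66-fold) and Ly6d (1.62-fold) completed this side together with Inhba. Inhba encodes another activin subunit and was 1.60-fold higher in score-low livers, while Inhbb had the opposite sign. Ly6d differed between blocks, by -0.48 in Eif2s3y-high mice with numbers up to 212 and by -0.05 in Eif2s3y-low mice with numbers above 212. Its log10 ratio also had the widest range of these genes in the score-low group, from -0.9998 to 0.537. With the first principal component of all genes as a covariate the difference in Ly6d was -0.0232 and not called (adjusted p = 0.637). The mouse number as a covariate was an alternative added after seeing the data. With it, each of the leading genes named so far was still called in its direction. This covariate is a straight line in the number and cannot take up a step. In Eif2s3y-high mice up to number 212, no score-high mouse had a number under 139, while score-low mice had a median of 117. Whether the title number had a part in the leading genes was not tested.

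**Figure D3:**
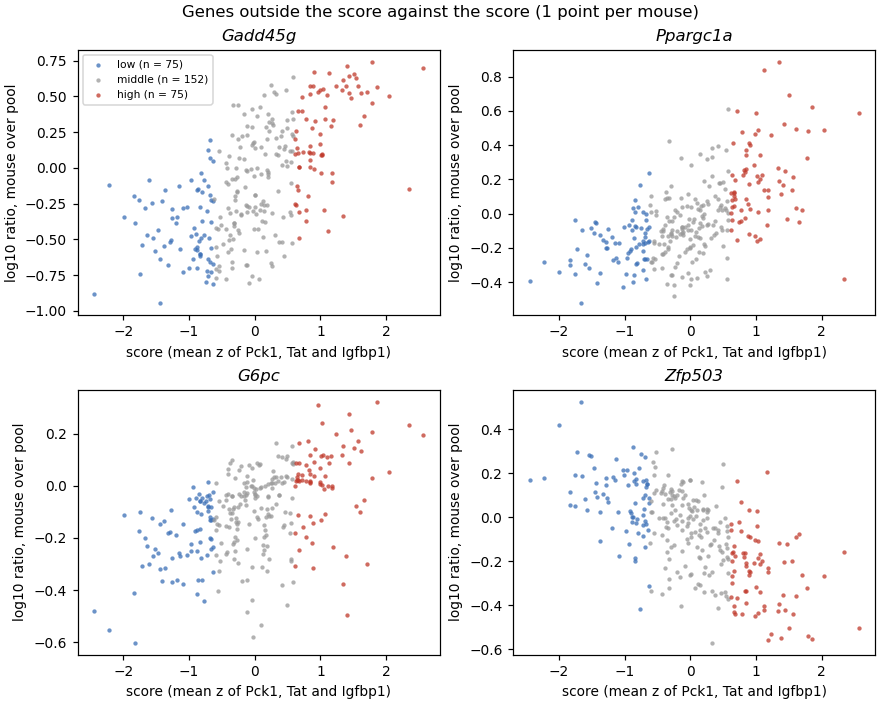
Log10 ratio of Gadd45g, Ppargc1a, G6pc and Zfp503 (vertical axes) against the score, the mean standardized value of Pck1, Tat and Igfbp1 (horizontal axis), with 1 point for each of 302 mice. The median of Gadd45g was -0.462 in score-low, -0.124 in middle and 0.290 in score-high mice.

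Among the other enzymes and carriers of glucose production, 4 of 10 measured members were called higher and none lower. Their median difference was 0.02 in log10, beside 0.00241 over all genes. G6pc encodes glucose-6-phosphatase, which releases free glucose in the last step. It ran from -0.602 to 0.0142 in the score-low mice (median -0.179) and from -0.495 to 0.323 in the score-high mice (median 0.0307). Above zero, the level of the pool, lay 52 score-high mice and 1 score-low mouse. G6pc was 1.64-fold higher (1.48 to 1.83, adjusted p = 4.17e-14). Its window in front of the gene held CAAAACA on the opposite strand, from -174 to -168.

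Got1, the cytosolic aspartate aminotransferase, was 1.85-fold higher (1.64 to 2.09, adjusted p = 1.83e-16). It ran from -0.503 to 0.327 in the score-low mice and from -0.207 to 0.729 in the score-high mice, and 71 score-high mice exceeded the score-low median. The malate dehydrogenase gene Mdh1 and the glucose-6-phosphate carrier Slc37a4 were each 1.13-fold higher. For Slc37a4 the difference was 0.09 in mice with numbers up to 212 and 0.01 above. Pcx, the pyruvate carboxylase that starts the pathway, did not pass the test, with medians of 0.00468 in score-low and -0.00241 in score-high mice. Its fitted low-over-high ratio had a 95% interval of 0.977 to 1.07. Both genes of lactate dehydrogenase also fell short of the threshold, with differences of 0.00 for Ldha and -0.01 for Ldhb. The list therefore held 2 members with a change over 1.5-fold, G6pc and Got1, and 6 that were not called. Fbp1, Cps1 and Sds were not measured under their names here.

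Of 17 regulators of the pathway, 8 were higher and 3 lower. Ppargc1a, the coactivator PGC-1alpha that CREB induces in fasting, ran from -0.520 to 0.237 in the score-low mice (median -0.173) and from -0.381 to 0.885 in the score-high mice (median 0.173). In 74 of 75 score-high mice it exceeded the score-low median, and it was 2.42-fold higher (2.09 to 2.79, adjusted p = 3.81e-21). Its values also varied with the title number. In the Eif2s3y-low score-high mice numbered 73 to 85 it lay between -0.155 and 0.0784. In those numbered 130 to 194 it lay between -0.131 and 0.885. Whether the title number had a part in the difference in Ppargc1a was not tested. Foxo1 was 1.67-fold higher (1.55 to 1.81, adjusted p = 8.58e-24), with a median of -0.0963 in the low and 0.152 in the high group. Sik1, a kinase that CREB induces and that holds back CREB's coactivators, was 1.61-fold higher. The nuclear receptor Nr4a1 (0.15 in log10), the C/EBP factor Cebpb (0.14) and Klf15 (0.07), a glucocorticoid-induced factor of amino acid breakdown, were called higher too. The called lower members were Foxa2, a pioneer factor of liver genes (1.46-fold higher in score-low livers), Creb1 (-0.06) and Onecut1 (-0.02). The glucocorticoid receptor gene Nr3c1 differed by -0.03 and was not called.

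Genes that glucocorticoids induce had the second highest share of members called higher of the 38 lists. The lists were chosen with earlier results of these data known. Their order by share is thus a description and no independent evidence. Of 20 measured, 16 were higher and 1 lower, with a median difference of 0.17. Gadd45g, Gadd45b, Lpin1 and Cdkn1a head this list. Its further members included Map3k6 (0.29), the kinase Pim3 (0.25), the kinase Sgk1 (0.25), Tsc22d3 (0.24), which encodes the glucocorticoid-induced leucine zipper, and the receptor's co-chaperone Fkbp5 (0.16). Per1 rose by 1.19-fold. The member called lower was Glul, glutamine synthetase (-0.03), and Zbtb16, Rhob and Bcl6 were not called. Per mouse, the mean over the list ran from -0.288 to 0.0978 in the score-low group and from -0.123 to 0.2499 in the score-high group.

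Targets of cAMP and CREB gave 11 higher and 2 lower members of 15, with a median difference of 0.15. This list shares 4 members with the glucocorticoid list (Dusp1, Gadd45b, Lpin1 and Per1). Btg2, an antiproliferative early response gene, was 2.49-fold higher (2.11 to 2.94, adjusted p = 3.19e-18). It ran from -0.707 to 0.221 in the low and from -0.376 to 0.886 in the high group. The repressor Crem was higher by 0.17. The clock repressor Nr1d1 was lower, as was the phosphodiesterase Pde4b (-0.10). Irs2 and Nr4a3 were not called, and the 2 probes of Irs2 disagreed in sign, at -0.03 and 0.12.

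Immediate early genes, which answer many stimuli within minutes, were called higher in 12 of 13 cases. Their median difference was 0.15. The list shares Btg2, Dusp1 and Fos with the cAMP list, and Dusp1 with the glucocorticoid list. Jun was 1.60-fold higher (1.37 to 1.87, adjusted p = 2.20e-07), although the change was 0.42 in Eif2s3y-low mice with numbers up to 212 and 0.04 in Eif2s3y-high mice of the same numbers. Zfp36, an RNA-binding protein that speeds the decay of cytokine messages, was also 1.60-fold higher (1.49 to 1.72, adjusted p = 1.23e-22). It ran from -0.303 to 0.0789 in the low and from -0.0996 to 0.481 in the high group, and 45 score-high mice exceeded every score-low mouse. Jund (0.20), Klf6 (0.16), Atf3 (0.15) and Egr1 (0.13) were higher as well, and Myc (-0.06) was not called. How long each liver waited between death and freezing is not given, and its part in these genes was not tested.

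**Figure D4:**
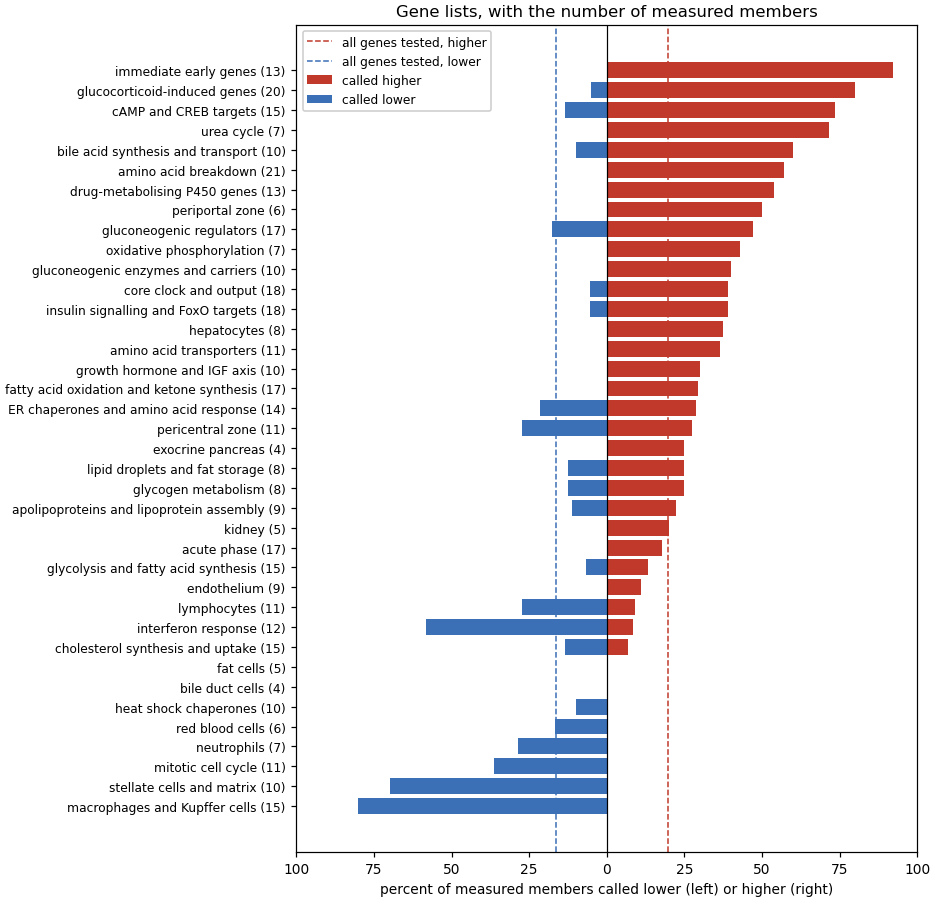
Percent of the measured members of each of 38 gene lists called higher (right) or lower (left) in score-high livers, with the number of measured members in brackets. Dashed lines mark the share of all tested genes, 19.7% higher and 16.4% lower. Immediate early, glucocorticoid-induced and cAMP-responsive genes, whose lists share members, stand at the top, and macrophage and stellate cell genes at the bottom. The lists were chosen with earlier results of these data known.

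In the windows in front of the genes, the letters ACGTCA were found in 11.4% of the genes called higher, 7.15% of those called lower and 7.79% of those not called. Of the 52 genes with a window that were higher by over 1.5-fold, 9 held it (17.3%). Plk3, Dusp1 and Btg2 were among the named genes with a match. CAAAACA was found in 4.76% of the higher, 3.57% of the lower and 4.38% of the genes not called, and GTAAACA in 2.50%, 2.31% and 2.57%. The glucocorticoid element was found in 8 of 1680 higher, 1 of 1427 lower and 15 of 5480 genes not called. Of the 52 genes higher by over 1.5-fold, 4 held CAAAACA (7.69%), 0 held GTAAACA and 3 held the glucocorticoid element (5.77%). These shares are descriptions and were not tested.

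Amino acids are an important carbon source of new glucose in a fast, and their breakdown sends nitrogen to the urea cycle. Of 21 genes of amino acid breakdown, 12 were higher and none lower, with a median difference of 0.04. The lysine-degrading enzyme Aass and the cysteine-forming Cth were each 1.33-fold higher, the tryptophan dioxygenase Tdo2 1.32-fold and Mat1a, which makes S-adenosylmethionine, 1.23-fold. Aass ran from -0.430 to 0.244 in the low and from -0.159 to 0.263 in the high group, and the groups overlapped widely. With the mouse number as a covariate 8 members were called higher, and with the first principal component of all genes 6.

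In the urea cycle 5 of 7 members were higher and none lower. The mitochondrial ornithine carrier Slc25a15 stood out, at 1.63-fold (1.46 to 1.83, adjusted p = 9.63e-13), and 68 score-high mice exceeded its score-low median. Asl was 1.24-fold, Ass1 1.21-fold and Arg1 1.19-fold higher. Otc and Nags were not called. With the mouse number as a covariate 3 members were called higher, and Arg1 was not (0.0670, adjusted p = 0.0533).

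Among 11 amino acid carriers 4 were higher, and apart from Slc38a2 these were the cationic carrier Slc7a2 (1.48-fold), the mitochondrial carrier Slc25a47 (1.34-fold) and Slc38a4 (1.22-fold). The difference in Slc7a2 was 0.25 in mice with numbers up to 212 and 0.08 above. None of the 11 was lower.

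Insulin acts on the liver through its receptor, the Irs adaptors and Akt, and its absence frees FoxO1. Of 18 genes of insulin signalling and FoxO targets, 7 were higher and 1, Cdkn1b (-0.05), was lower. Pdk4, the kinase that shuts pyruvate dehydrogenase in fasting, was 1.57-fold higher (1.26 to 1.97, adjusted p = 7.15e-04). The groups overlapped over most of their range, from -0.820 to 0.595 in the low and from -0.609 to 0.945 in the high group. Its difference was 0.40 in Eif2s3y-high mice with numbers above 212 and 0.01 in Eif2s3y-high mice with lower numbers. With the score built without Igfbp1 the difference in Pdk4 was 0.0826 and no longer called (adjusted p = 0.178). Insig2, an insulin-repressed brake on sterol synthesis, was 1.44-fold and the cyclin Ccng2, a FoxO target, 1.28-fold higher. The insulin receptor gene Insr was called with a difference of 0.01.

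Insulin and sugar also drive the making of fatty acids. Of 15 genes of glycolysis and fatty acid synthesis, 2 were higher and 1 lower. Thrsp, a lipogenic protein gene, was 1.66-fold higher in score-high livers (1.33 to 2.08, adjusted p = 1.08e-04). Mlxipl, the sugar-sensing factor ChREBP, was 1.19-fold higher in score-low livers. Srebf1, the main insulin-driven factor of this programme, was not called, with medians of -0.0929 in score-low and -0.0732 in score-high mice. Its fitted high-over-low ratio had a 95% interval of 0.971 to 1.26.

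Of 17 genes of fatty acid oxidation and ketone synthesis, 5 were higher and none lower. Besides Pdk4 they included Angptl4, an inhibitor of lipoprotein lipase (1.39-fold, a difference of 0.144 with an SE of 0.0167, adjusted p = 7.09e-13), and Cyp4a14 (1.25-fold), of whose 2 probes 1 was called. Ppara, Cpt1a and Fgf21 were not called, with differences of 0.00, 0.00 and 0.01. In cholesterol synthesis and uptake 1 of 15 genes was higher (Hsd17b7, 1.19-fold) and 2 were lower, a share of members under that of all genes on both sides. In the list of fat storage, the lipase inhibitor G0s2 was 1.51-fold higher in score-low livers and the droplet protein Plin4 1.40-fold higher in score-high livers. With the mouse number as a covariate Plin4 was not called (0.104, adjusted p = 0.123).

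Of the hepatocyte genes, 3 of 8 were higher and none lower, with a median difference of 0.02. Of the genes of macrophages and Kupffer cells, 12 of 15 were lower and none higher, with a median difference of -0.08. Gpnmb, of lipid-laden macrophages, was 1.57-fold higher in score-low livers, C1qc 1.26-fold, and Csf1r and Cd5l 1.25-fold each. Per mouse, the mean over the macrophage list ran from -0.458 to 0.286 in the score-low group (median -0.0563) and from -0.367 to 0.145 in the score-high group (median -0.110), and the groups overlapped over most of the range. Of 10 stellate cell and matrix genes 7 were lower, led by Col1a1 (1.53-fold higher in score-low livers), Vim (1.32-fold) and Pdgfrb (1.31-fold). In whole liver, fewer cells of a type and less RNA per cell cannot be told apart. With the first principal component of all genes as a covariate (13.2% of the variance), 0 macrophage genes were called lower and 1 higher. In that fit 1 stellate cell gene was called lower, and Gpnmb and Col1a1 turned to 4.83e-04 and 0.00358 in log10. Of the 20 glucocorticoid-induced genes, 16 were called higher in it. That component is the leading axis of all genes in these livers, and what it stands for was not tested. Whether other cells had a part in any of these changes was not tested.

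Markers of the remaining cell types are set beside the share of all tested genes, 19.7% higher and 16.4% lower. Endothelial genes gave 1 higher and none lower of 9, bile duct genes none of 4 and fat cell genes none of 5. Of 11 lymphocyte genes 1 was higher and 3 lower. Of 7 neutrophil genes 2 were lower, Camp (1.41-fold higher in score-low livers) and Ngp (1.35-fold), and with the first principal component as a covariate Ngp was not called (-0.0833, adjusted p = 0.116). Among 12 interferon-induced genes 7 were lower and 1 higher. Cxcl10 was 1.59-fold, Oasl2 1.49-fold and Ifit2 1.39-fold higher in score-low livers, while Usp18 was 1.36-fold higher in score-high livers. Acute phase genes, of which 3 of 17 were higher (Fgg among them, 1.18-fold), had a share near that of all genes.

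The clock and its outputs gave 7 higher and 1 lower of 18 genes. Nr1d1 ran from -0.517 to 0.318 in the score-low mice (median 0.000685) and from -0.922 to 0.384 in the score-high mice (median -0.186). It was 1.52-fold higher in score-low livers (1.33 to 1.73, adjusted p = 9.53e-08). Usp2, a rhythmic ubiquitin protease, was 1.51-fold, the activator Rora 1.37-fold and the repressor Nfil3 1.32-fold higher in score-high livers. Dbp was not called, with a difference of -0.02, and neither was Arntl, which encodes the core activator BMAL1. Cyp17a1, a steroid hydroxylase with a wide range in these livers (-1.18 to 0.608 in score-low mice), differed by 0.03 and was not called either.

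Arntl differed in opposite directions in the 2 ranges of title numbers. Up to number 212, Arntl had a median of 0.00536 in 39 score-low and -0.111 in 38 score-high mice. Above 212 the medians were -0.0336 in 36 score-low and 0.0986 in 37 score-high mice. The fitted differences were -0.14 (SE 0.05) and 0.13 (SE 0.04), and the test of their difference gave an adjusted p of 0.0175. Per2, a core repressor named after its values were seen, went the other way, from 0.04 up to number 212 to -0.14 above it (adjusted p = 0.0400). Nr1d2, also named after its values were seen, had differences of 0.04 and -0.03 (adjusted p = 0.0273). Nr1d1 was lower in score-high mice of both ranges, by -0.20 and -0.16, and its test of the difference gave an adjusted p of 0.762.

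**Figure D5:**
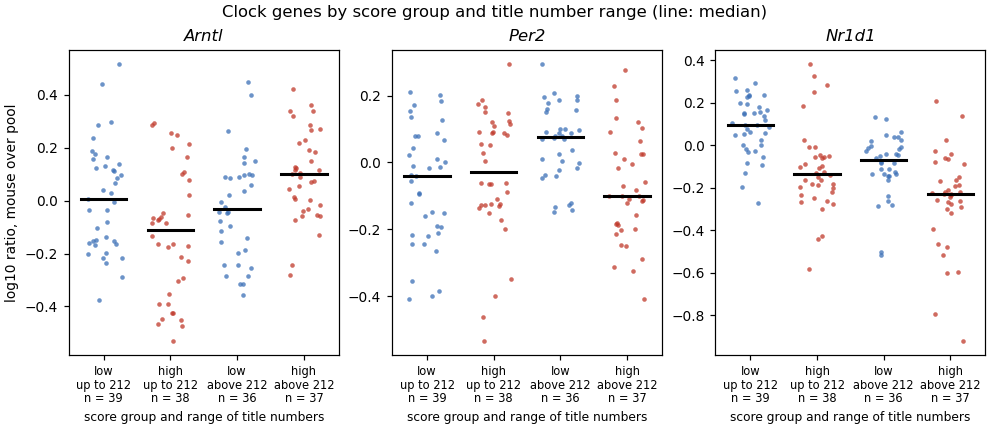
Log10 ratio to the pool (vertical axes) of Arntl, Per2 and Nr1d1 by score group and range of title numbers, 1 point per mouse, with the median as a line. The median of Arntl falls from 0.00536 to -0.111 between score-low and score-high mice up to number 212 and rises from -0.0336 to 0.0986 above it.

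In all, the difference between score-high and score-low livers depended on the range of title numbers for 326 genes (3.02%), and 232 of these had opposite signs in the 2 ranges. The 3 with the smallest adjusted p were Il13ra1, a receptor chain of interleukin 13, the chromatin subunit gene Smarcd1 and the membrane protein gene Stom. Il13ra1 was higher in score-high mice by 0.10 in the lower range and lower by -0.04 above it (adjusted p of the difference 5.26e-04). Smarcd1 differed by -0.11 in the lower range and 0.03 in the higher, and Stom by -0.09 and 0.03. What the title number stands for is not given. No gene's difference depended on the Eif2s3y cluster at an adjusted p under 0.05 (0% of 10812, by limma), and 968 genes did at an unadjusted p under 0.05.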

How the data were processed

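The authors deposited 1 table of log ratios, read here as log10 of the mouse (Cy3) over the pool (Cy5). The dyes are given per the labels, while the base, the direction and the steps before the ratio (background correction, normalization) are not stated in the sources used. The deposited values end at -2 and 2 and were used without further normalization, 0.0831% of them missing. RNA came from spin columns with DNAse treatment, per the labels' protocols. Of 23562 probes, 12652 matched 10838 genes by symbol and were averaged per gene, 48 had several symbols and were not named, and 9859 were not listed in the annotation. The gene table and the windows in front of genes are RefSeq's on GRCm38.p6, and 8587 tested genes had a window. A gene was tested where at least 90% of the mice had a value. As these are arrays, precision is limited by their number.

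Score-high and score-low mice were compared with limma 3.58.1 in R 4.3.3 (lmFit and eBayes, two-sided), with the 4 blocks as a term. P-values were adjusted by Benjamini-Hochberg over all 10812 genes, with the threshold 0.05, and intervals are at 95%. The Eif2s3y limit of -0.8 served only to set the blocks. Interaction terms tested whether a difference depended on the title number or the Eif2s3y cluster. The script was tested on simulated data. Named genes are those with the largest differences called in all tested genes and of the same sign in every block, up to 4 called members with the largest differences in each list, a fixed set of fasting, clock and steroid genes, and the 3 genes with the smallest interaction p, with other genes named from within a list. The mice, the lists and the tests were chosen with earlier results of these data known. Each mouse is 1 animal, and p-values measure the spread between animals as if the mice of a block were independent. Title numbers were not spread evenly over the score groups within blocks. Among Eif2s3y-high mice of the lower number range, no score-high mouse had a number under 139, while score-low mice had a median of 117. Whether mice of neighbouring numbers were alike, which would make the p-values too small, was not tested.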

Additional observations from a re-analysis of the deposited data

Results flagged for a closer look

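The difference between score-high and score-low livers depended on the range of title numbers, by the interaction test, for 9 of the named genes. Differences are given as the value in mice with numbers up to 212 minus that in mice with higher numbers, in log10. For the clock genes Arntl, Per2 and Nr1d2 this was -0.264, 0.174 and 0.0738. Arntl and Nr1d2 were lower or higher in opposite ranges, as described above. For the glucose-6-phosphate carrier gene Slc37a4 it was 0.0859 and for the cationic amino acid carrier gene Slc7a2 0.173, and both were higher in score-high livers of both ranges, with the larger difference up to number 212. For Herpud1, a gene of the endoplasmic reticulum stress response, it was -0.0850, since its difference was 0.0715 up to number 212 and 0.157 above it (adjusted p of the interaction 0.0131). For Il13ra1, Smarcd1 and Stom it was 0.139, -0.140 and -0.120. The title number also differed between the score groups, with a median of 212 in score-high and 174 in score-low mice, and its part in these differences was not tested.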

How the results depend on the processing

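No paired analysis was possible because the labels give 1 group and no replicate numbers. The main counts were 2128 higher and 1769 lower genes. With each probe as its own row, named or not, they were 4386 and 3189. Those rows come from a table of 23562 probes, against 10812 genes in the main fit. The 2 pairs of counts thus have different bases. With the first principal component as a covariate 1204 genes were higher and 1185 lower. Single blocks hold fewer mice. In Eif2s3y-high mice 1313 genes were higher and 1302 lower up to number 212, and 258 and 362 above it. In Eif2s3y-low mice these counts were 443 and 568 up to number 212, and 214 and 209 above it. The counts did not follow the number of mice compared. Up to number 212 it was 18 score-high against 17 score-low Eif2s3y-high mice, and 20 against 22 Eif2s3y-low mice. The 326 genes that depended on the number range became 1156 with array weights and 74 with 50 against 50 mice, and in the latter fewer samples were fitted. The other counts lay within 1.5 times of the main ones, among them those with the mouse number as a covariate (1624 and 1313) and without the 5% of arrays with the largest SD (2114 and 1800), both added after seeing the data.

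Of 100 named genes outside the score 91 were called. Of these 91, 71 kept both sign and call in all 17 settings other than single blocks, while 20 lost their call in at least 1. Among all 100, signs turned in the cases that follow, and the cause was not tested. With the first principal component Gpnmb came to 4.83e-04, Col1a1 to 0.00358 and Nr1d2 to -0.0116. With 50 against 50 mice Pcx came to 0.00692, Arntl to 0.0175 and Nr1d2 to -0.00848. With the score without Pck1 Arntl came to 0.0316 and Nr1d2 to -0.0109. Arntl came to 0.00959 with the mouse number as a covariate, Nr1d2 to -0.00502 as a slope over 302 mice, and Cyp17a1 to -0.00128 with array weights. Within Eif2s3y-high mice above number 212 the turned values were Pcx 0.00699, Srebf1 -1.65e-04, Arntl 0.124, Cyp17a1 -0.0258, Il13ra1 -0.0109, Smarcd1 8.34e-04, Stom 0.0212 and Nr1d2 -0.0360. Within Eif2s3y-low mice above it they were Srebf1 -0.0196, Irs2 -5.01e-04, Arntl 0.132, Cyp17a1 -0.0603, Akr1d1 -0.0285, Ghr -0.0210, Gpnmb 0.00647, Il13ra1 -0.0789, Smarcd1 0.0679, Stom 0.0380 and Nr1d2 -0.0305. Up to number 212, Irs2 came to -0.0179 and Per2 to 0.0515 in Eif2s3y-high mice, and Per2 to 0.0268 in Eif2s3y-low mice.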

Other observations

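Counts for the remaining lists are read against the share of all tested genes, 19.7% higher and 16.4% lower. Of 10 genes of bile acid synthesis and transport, 6 were higher and 1 lower. The lower one was Slc10a1, the sodium-dependent bile acid importer, which ran from -0.161 to 0.363 in the score-low mice (median 0.0650) and from -0.356 to 0.181 in the score-high mice (median -0.0676). It was 1.38-fold higher in score-low livers (95% interval 1.30 to 1.48, adjusted p = 4.43e-16). Akr1d1, a reductase of bile acid synthesis, was 1.18-fold higher in score-high livers. With the mouse number as a covariate 2 genes of this list were called higher, and with the first principal component none were higher and 2 lower. Of 13 drug-metabolising P450 and related genes 7 were higher and none lower, with Cyp2b10 at 1.44-fold and Cyp2c50 at 1.35-fold. With the mouse number as a covariate 2 of this list were called.

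The lists of growth hormone and IGF, the endoplasmic reticulum, heat shock, the pericentral zone and apolipoproteins lay within a few genes of those shares. In the growth hormone and IGF list 3 of 10 were higher, the binding protein Igfbp2 (1.33-fold), Igf1 (1.17-fold) and the receptor Ghr (1.16-fold). Of 14 genes of the endoplasmic reticulum and the amino acid response 4 were higher and 3 lower. Herpud1 was 1.30-fold higher in score-high livers, with 74 of 75 score-high mice above the score-low median, while the factor Xbp1 was 1.30-fold higher in score-low livers. Among 10 heat shock chaperones 1 was lower (Hsph1, 1.22-fold higher in score-low livers). Among 11 genes of the mitotic cycle 4 were lower, led by Birc5 (1.35-fold higher in score-low livers), and with the mouse number as a covariate none were. The pericentral zone of the lobule gave 3 higher and 3 lower genes of 11, with the Wnt-dependent receptor Lgr5 1.54-fold higher in score-low livers, and the periportal zone 3 higher and none lower of 6. Of the apolipoprotein list 2 of 9 were higher and 1 lower, the latter Apoa4 (a difference of -0.08). Col5a2, of the matrix list, differed by -0.08 (adjusted p = 0.0460). Akr1d1, Igfbp2, Ghr, Apoa4, Cyp2c50, Birc5 and Col5a2 each lost their call with the first principal component as a covariate.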
